A study of Mus musculus with 30 samples.

Results

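Regions bound by CHD4 alone were collected from the peak lists of 4 chromatin remodelers in mouse embryonic stem cells, and 11548 of 186686 merged remodeler regions met the definition. Peaks of the 8 remodeler lists of 0 h (CHD4, CHD8, SMARCA4 and SMARCA5, 2 libraries each) that overlapped by at least 1 bp were merged on chromosomes 1 to 19 and X. Of the merged regions, 28218 lay within 1 kb of a CTCF peak of 0 h and were dropped, which left 158468. Of these, 52908 held a peak in both CHD4 lists, and the 11548 with no peak in the other 6 lists are called CHD4-only regions here. They make up 21.8% of the regions with both CHD4 lists. The members were selected on measured values, so their CHD4 peaks at 0 h (100% in both libraries) and the absence of the other remodelers at 0 h are not results.

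The cells were E14 mouse embryonic stem cells in which CTCF carries an auxin-inducible degron (genotype CTCF AID), grown without serum in medium with LIF, PD0325901 and CHIR99021, and sampled untreated (0 h) or after 12 h of the auxin IAA, which directs the tagged protein to degradation. CTCF and the cohesin subunit SMC1A were profiled by ChIP-seq in CTCF AID cells with 1 library per time. Each remodeler was profiled in its own line that also carried a biotin tag on it (CTCF AID and biotin-CHD4, biotin-CHD8, biotin-SMARCA4 or biotin-SMARCA5), with 2 libraries per time. All groups therefore share the CTCF degron, and a remodeler and the line that carries its tag cannot be told apart. The labels do not say whether the replicates came from separate cultures. The p-values treat each library as a separate unit, and the spread between replicates may be technical. The CHD4 lists held between 104991 and 187275 peaks and were the longest of the series. The sequencing depth behind the lists is unknown, so a region with no peak call cannot be read as a region with no CHD4. CTCF peaks went from 29926 at 0 h to 2247 at 12 h and SMC1A peaks from 16723 to 10, in 1 library each. Median CHD4 peak widths were 433 and 119 bp in replicates 1 and 2 at 0 h and 475 and 94 bp at 12 h, so the replicates differed in how peaks were drawn.

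CHD4 is the ATPase of the NuRD complex, which joins nucleosome remodeling to histone deacetylation through subunits such as MTA, RBBP, GATAD2 and MBD proteins. It is also part of the ChAHP complex with ADNP and HP1 proteins, known in mouse embryonic stem cells for binding short interspersed repeats (SINEs) of the B2 family, copies of which carry CTCF-like motifs. CHD8 is a related helicase found at active promoters, SMARCA4 (BRG1) is the ATPase of BAF complexes, and SMARCA5 (SNF2H) is the ATPase of ISWI complexes, which space nucleosomes.

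The letters under the CHD4-only regions are given first. They were examined after the 12 h lists had been seen, and they split the regions into a pair of classes that differed at 12 h. In the central 300 bp of members on odd-numbered chromosomes, each 10-letter word was counted by the number of these windows that held it. The 120-base stretch whose words had the highest summed count was taken as an exemplar, and a second one was taken from members without the first. Both are shown 5′ to 3′ on the plus strand of GRCm38, from the RefSeq genome sequence. In the first, capitals mark a 9-letter word, GAGGGCATC, that is followed through the results. As background, the first has the letters of a B2-type SINE and the second those of a B1-type SINE; no repeat annotation was used.
Recurring sequence 1, chr7:29834384-29834503: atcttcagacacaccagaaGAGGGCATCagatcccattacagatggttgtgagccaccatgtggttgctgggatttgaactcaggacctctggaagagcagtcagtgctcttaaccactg
Recurring sequence 2, chr9:110936427-110936546: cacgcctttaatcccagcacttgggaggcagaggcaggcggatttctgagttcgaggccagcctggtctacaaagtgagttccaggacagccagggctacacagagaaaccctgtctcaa

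A region was said to hold sequence 1 when the best local alignment on either strand scored at least 40 (match 1, mismatch -1, gap opening -3, gap extension -1). The 200 bases at the centre of 8 members are shown, named by the protein-coding gene with the nearest start site, with the bases aligned to sequence 1 in capitals. The first 5 hold it. CHD4 peaks at Pgpep1l, Bicdl1, Pak2 and Bud23 were among the strongest at 0 h and absent from both 12 h lists, and the peak at Zglp1 was among the strongest at 12 h. The last 3 lack it: the Ppargc1a member had no CHD4 peak at 12 h, and those at Vmn1r2 and Mpdz were among the strongest at 12 h. The windows at Vmn1r2 and Mpdz consist of short units that recur along the window.
Pgpep1l member, chr7:68142409-68142608: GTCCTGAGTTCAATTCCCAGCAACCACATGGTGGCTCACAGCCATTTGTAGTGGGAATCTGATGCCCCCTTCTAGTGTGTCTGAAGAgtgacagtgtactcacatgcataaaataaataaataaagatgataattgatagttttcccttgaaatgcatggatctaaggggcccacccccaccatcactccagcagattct
Bicdl1 member, chr5:115776326-115776525: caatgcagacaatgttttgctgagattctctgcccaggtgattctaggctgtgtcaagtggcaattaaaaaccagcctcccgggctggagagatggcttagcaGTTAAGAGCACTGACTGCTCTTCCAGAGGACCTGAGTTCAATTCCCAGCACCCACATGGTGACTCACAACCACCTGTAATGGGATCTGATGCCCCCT
Pak2 member, chr16:32042476-32042675: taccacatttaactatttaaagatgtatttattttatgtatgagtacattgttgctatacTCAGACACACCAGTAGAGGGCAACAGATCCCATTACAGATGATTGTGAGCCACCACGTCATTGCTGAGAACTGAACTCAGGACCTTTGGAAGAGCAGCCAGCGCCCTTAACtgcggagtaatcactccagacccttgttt
Bud23 member, chr5:135060340-135060539: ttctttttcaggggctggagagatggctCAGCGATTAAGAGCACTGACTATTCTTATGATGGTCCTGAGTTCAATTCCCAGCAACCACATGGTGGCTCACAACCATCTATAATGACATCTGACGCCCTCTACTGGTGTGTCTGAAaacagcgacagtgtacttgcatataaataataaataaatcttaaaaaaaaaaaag
Zglp1 member, chr9:21060195-21060394: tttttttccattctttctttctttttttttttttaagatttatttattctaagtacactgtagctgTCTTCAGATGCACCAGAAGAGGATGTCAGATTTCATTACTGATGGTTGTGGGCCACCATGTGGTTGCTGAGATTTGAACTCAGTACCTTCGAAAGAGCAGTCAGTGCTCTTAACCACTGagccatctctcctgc
Ppargc1a member, chr5:51565805-51566004: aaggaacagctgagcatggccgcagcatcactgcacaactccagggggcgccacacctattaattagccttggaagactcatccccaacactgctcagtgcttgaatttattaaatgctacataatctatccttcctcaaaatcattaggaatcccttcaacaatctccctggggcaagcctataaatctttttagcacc
Vmn1r2 member, chr4:3176011-3176210: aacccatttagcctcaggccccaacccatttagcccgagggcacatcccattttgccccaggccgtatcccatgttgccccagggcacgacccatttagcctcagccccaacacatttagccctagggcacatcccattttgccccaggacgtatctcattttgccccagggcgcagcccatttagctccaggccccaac
Mpdz member, chr4:81330369-81330568: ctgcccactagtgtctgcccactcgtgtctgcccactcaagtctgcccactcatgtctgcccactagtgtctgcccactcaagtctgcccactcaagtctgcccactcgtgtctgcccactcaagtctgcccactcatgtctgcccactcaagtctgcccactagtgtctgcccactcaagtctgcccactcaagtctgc

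Sequence 1 was present in 32.6% of CHD4-only regions, 3765 of 11548. On the even-numbered chromosomes and X, which had no part in choosing the exemplar, the share was 33.4%. The same measure gave 2.52% in the 41360 shared CHD4 regions, which hold a peak in both CHD4 lists and in at least 1 list of another remodeler. It gave 1.80% in regions of CHD4 and SMARCA4 alone, 1.23% in regions of all 4 remodelers, 2.29% in SMARCA5-only, 0.578% in CHD8-only and 0.531% in SMARCA4-only regions. At the members' own positions shifted by 100 kb to either side it was 3.49%. CHD4-only regions within 1 kb of CTCF, which the rule leaves out, held sequence 1 in 28.6% of 2943 cases. That nearness to the members rests on the alignment score: at a score of at least 60 the shares were 16.1% beside CTCF and 28.8% in members. Shared regions were wider (median 1354 bp against 355 bp), so the central 300 bp cover less of them.

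**Figure D1:**
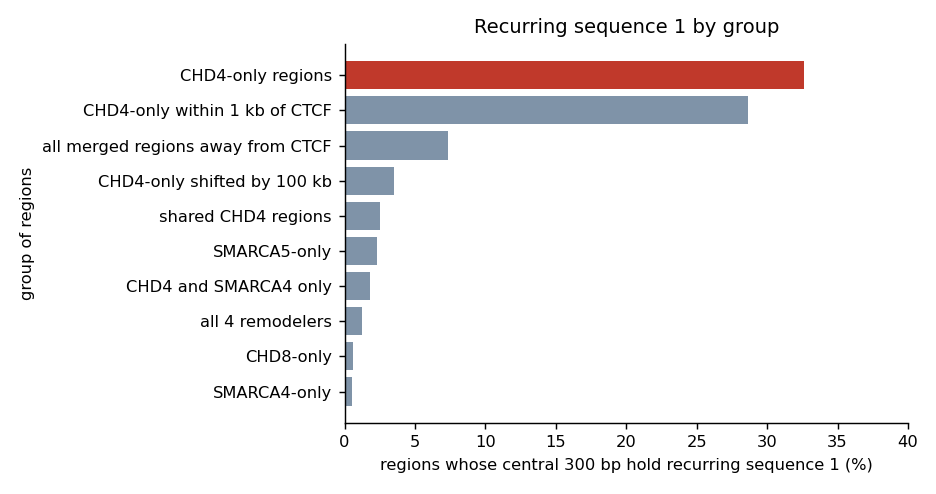
Share of regions, in percent, whose central 300 bp hold recurring sequence 1, for 10 groups of regions (bars). CHD4-only regions (32.6%) and CHD4-only regions within 1 kb of CTCF (28.6%) stand above all other groups, which reach at most 7.36%, the share over all merged regions away from CTCF.

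Sequence 2 was less unequal between groups. It was found in 9.78% of CHD4-only regions, 4.74% of shared CHD4 regions and 6.56% of shifted positions. SMARCA5-only regions held it in 9.33%, close to the share in members. Bases in lower case in the RefSeq sequence, which are masked as repetitive, made up 45.7% of the central windows of CHD4-only regions, against 20.6% in shared regions and 30.2% at shifted positions. GC content was 49.4% in members, 52.5% in shared regions and 45.1% at shifted positions. The observed over expected ratio of CpG was 0.243, 0.447 and 0.226 in the same order.

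Short words were counted on both strands in the same windows, as letters only. The word GAGGGCATC, called the CpA form, was present in 12.5% of members (1449) and in 1.04% of shared regions, and 95.4% of the members that held it also held sequence 1. The CpG form, GAGGGCGTC, was present in 7.13% of members (823) and in 0.447% of shared regions. GAGGGTGTC, the form with a TpG, was present in 0.788% of members, 0.363% of shared regions and 0.559% of shifted positions. The letters GCGCCCCCT, from the core of the CTCF motif, were in 0.355% of members and 6.76% of CHD4-only regions beside CTCF. The KLF and SP word GGGCGGGG was in 2.80% of members, 8.31% of shared regions and 1.43% of shifted positions. The POU word ATGCAAAT was in 2.79% of members, 2.80% of shared regions and 4.97% of regions of CHD4 and SMARCA4 alone.

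Few CHD4-only regions lay at promoters, a share close to that of shifted positions. The share within 1 kb of a start site of any GENCODE M21 basic transcript was 6.93%, against 29.8% of shared CHD4 regions, 56.8% of regions of all 4 remodelers and 8.11% of shifted positions. In SMARCA4-only regions it was 6.20%. The rule leaves out regions with another remodeler, so the contrast with shared regions is partly set by the choice. Introns held 43.1% of the members, intergenic sequence 45.6% and exons 4.33%. Compared with shifted positions (49.8% intronic, 37.4% intergenic), members were more often intergenic. The median distance to a start site was 10621.5 bp in members, 6504 bp in shared regions and 11618.5 bp at shifted positions. Regions of CHD4 and SMARCA4 alone had a similar promoter share, 7.47%, but lay farther from start sites, at a median of 14442.5 bp, and were intergenic in 50.4%. Sequence 1 was held by 39.4% of intronic, 30.0% of intergenic, 23.0% of promoter and 7.80% of exonic members.

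**Figure D2:**
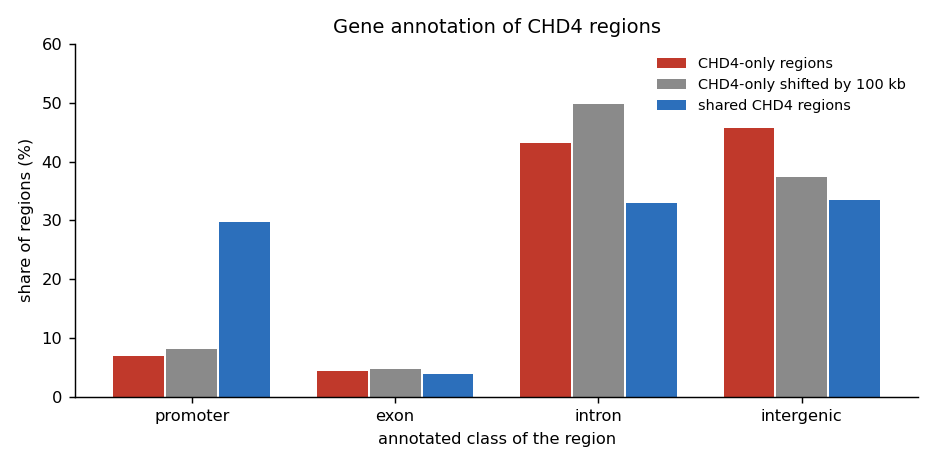
Share of regions, in percent, in each annotated class (bars) for CHD4-only regions, the same regions shifted by 100 kb and shared CHD4 regions. The promoter bar of CHD4-only regions (6.93%) is close to that of shifted positions (8.11%) and far below that of shared regions (29.8%).

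The members ran from the weakest to the strongest peaks of the CHD4 lists. Their median percentile, by -log10 p within each list, was 48.1 in replicate 1 and 53.3 in replicate 2 at 0 h, against 67.9 and 76.1 for shared CHD4 regions. The median fold enrichment, the authors' value for each peak, was 4.19 and 4.61. The median distance of a member to the nearest CTCF peak was 15667.5 bp. A 0 h SMC1A peak lay over 27 members (0.234%), against 4.92% of shared regions and 24.5% of CHD4-only regions beside CTCF. No 12 h SMC1A peak lay over a member, but that list held only 10 peaks.

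By chromosome, members were densest on chromosome 11, with 7.35 per Mb, and sparsest on X, with 0.684 per Mb. Shared CHD4 regions also fell low on X, and the number of members per 100 shared regions ran from 16.9 on X to 35.3 on chromosome 5. Chromosome X held the highest share of members with sequence 1, 44.4% of 117.

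The first question for the 12 h lists is whether CHD4 was still called at these regions after CTCF loss. In the 12 h libraries 54.3% (replicate 1) and 40.6% (replicate 2) of the 11548 members held a CHD4 peak, with exact 95% Clopper-Pearson intervals of 53.4 to 55.2% and 39.7 to 41.5% that cover counting error over regions only. At positions shifted by 100 kb the same lists gave 11.8% and 7.38%. A CHD4 peak in both 12 h lists was found at 32.9% of members (3796), where 69.6% of all regions away from CTCF with both 0 h CHD4 lists had one. A peak in neither 12 h list was found at 37.9% of members (4382), where 12.4% of all such regions had none. CHD4-only regions thus kept a CHD4 call less often than the regions they were drawn from. Shared CHD4 regions held a 12 h CHD4 peak in 92.0% and 82.5% of cases, which put members 39.8 ± 2.98 percentage points lower (SD, n = 2 libraries). Regions of CHD4 and SMARCA4 alone held one in 86.6% and 70.3%. Regions with both CHD4 lists and exactly 1 of the other 6 lists were in between, with 76.0% and 60.2%. Shared regions were also wider than members (median 1354 bp against 355 bp) and ranked higher at 0 h (median percentile 69.4 against 48.6). A wider region can meet a peak more easily, and the part of width and rank in these gaps was not tested.

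In any single 12 h list, another remodeler was seldom called at CHD4-only regions. CHD8 had a peak at 3.41% and 2.20% of members, SMARCA5 at 5.49% and 5.41%, and SMARCA4 at 13% and 18.2%. Shifted positions gave 6.85% and 4.83% for CHD8, 6.26% and 6.08% for SMARCA5, and 12.1% and 13.4% for SMARCA4. Members were chosen to have no peak of these 3 remodelers at 0 h and shifted positions were not. Of the shifted positions, 6.70% and 4.94% had a 0 h peak of CHD8 and 4.30% and 5.84% one of SMARCA5. The part of this choice in the lower CHD8 and SMARCA5 values at members was not tested. SMARCA4 was called at members slightly more often than at shifted positions in both libraries. A CHD8 peak in both 12 h lists appeared at 104 members (0.901%), where 1.64% of all regions without a 0 h CHD8 peak had one. SMARCA5 did so at 110 members (0.953%), where the background was 2.19%. SMARCA4 did so at 886 members (7.67%), a share near the background of 7.55%. A peak in at least 1 of the 6 other 12 h lists lay over 3538 members (30.6%), of which 1731 had CHD4 in both 12 h lists. At 2065 members (17.9%) CHD4 was called in both 12 h lists and no other remodeler in any. These counts have no share over other regions beside them, so none is called particular to members.

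Over the 8 remodeler libraries of 12 h, occupancy of the members was 47.5 ± 9.70% for CHD4 (SD, n = 2) and 7.95 ± 6.26% for the others (SD, n = 6). Both CHD4 libraries were above all 6 others. The permutation test gave the CHD4 label to every pair of these libraries, so it treated libraries of different proteins and lines as exchangeable. The difference of 39.5 points had an exact two-sided permutation p of 0.0357, the smallest that 28 relabellings allow, and 0.0536 after Benjamini-Hochberg adjustment over 3 tests, so it missed the 0.05 threshold after adjustment. Relative occupancy was the log2 odds ratio of holding a peak, members against all other merged regions away from CTCF. It was 0.52 ± 0.08 for CHD4 (SD, n = 2) and -2.64 ± 0.52 for the others (SD, n = 6), a difference of 3.16 with the same exact permutation p of 0.0357 and adjusted p of 0.0536. The regions were picked for CHD4 and against the others at 0 h, so any persistence to 12 h puts CHD4 above the others in both contrasts, and the other merged regions were themselves found through peaks of the other remodelers. Both contrasts therefore carry the 0 h choice forward and are no independent evidence for CHD4.

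**Figure D3:**
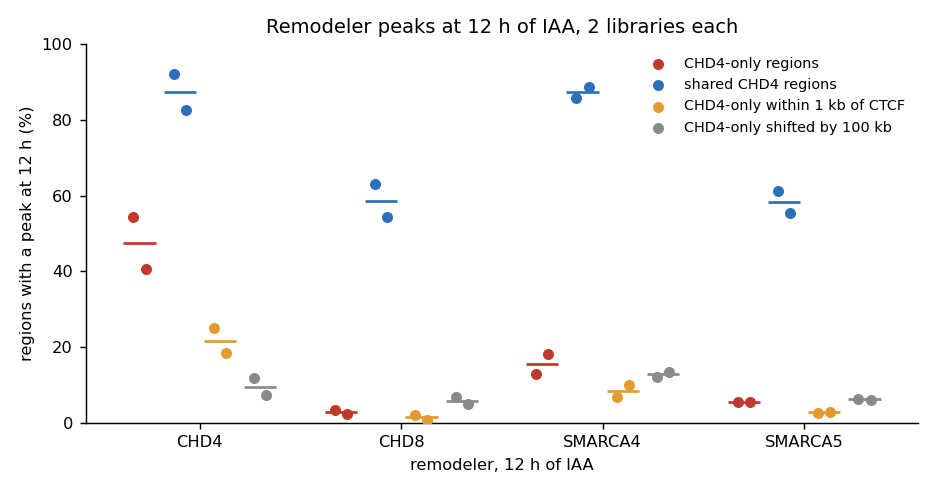
Percent of regions with a peak of each remodeler at 12 h of IAA, 1 point per library with the mean as a line, for CHD4-only regions, shared CHD4 regions, CHD4-only regions within 1 kb of CTCF and CHD4-only regions shifted by 100 kb. At CHD4-only regions CHD4 reached 54.3% and 40.6%, while no other remodeler exceeded 18.2%.

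Members with sequence 1 held a CHD4 peak at 12 h far less often than those without. With it, 31.2% and 23.7% of 3765 members had a peak in the replicate 1 and 2 lists, and without it 65.5% and 48.8% of 7783. The gap was 29.7 ± 6.48 points (SD, n = 2 libraries). On the even-numbered chromosomes and X it was of the same order, with 31.8% and 23.7% against 64.3% and 49.0%. No CHD4 peak in either 12 h list was found at 62.9% of members with sequence 1 and at 25.9% of those without. The other remodelers were also called less often there. At members with sequence 1, CHD8 was called at 0.544 ± 0.131%, SMARCA4 at 5.92 ± 0.939% and SMARCA5 at 3.05 ± 0.826% (SD, n = 2 libraries each), all below the values at members without it. Members with sequence 1 and no 12 h CHD4 peak were not examined apart, so replacement of CHD4 was not tested. Because CHD4 itself chose the regions and sequence 1 was found in them, these values are a description of the 2 libraries, with no test.

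The 0 h ranks, which come from the lists that chose the regions, are given beside the gap. Members with sequence 1 had the higher median percentile at 0 h, 60.4 against 43.6. Among members in the top 20 percentiles at 0 h, 33.9% and 29.1% of 705 with sequence 1 held a 12 h peak, against 83.6% and 76.4% of 433 without. Without sequence 1, the 12 h call became more frequent with the 0 h percentile, from 47.2% to 83.6% in replicate 1, as it did in shared regions. With sequence 1 it stayed between 25.3% and 33.9% in that library, and in replicate 2 it went from 13.2% in the lowest bin to 29.1% in the highest. That flatness was not common to all regions with sequence 1. In shared regions with it, the lowest and highest bins stood at 66.7% and 87.0% in replicate 1 and at 38.1% and 80.1% in replicate 2. These bins held 21 and 478 regions, and the second lowest, of 79, stood at 63.3% and 55.7%. In CHD4-only regions beside CTCF, with or without sequence 1, the lowest and highest bins stood at 27.0% and 30.1% in replicate 1 and at 14.5% and 25.2% in replicate 2.

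**Figure D4:**
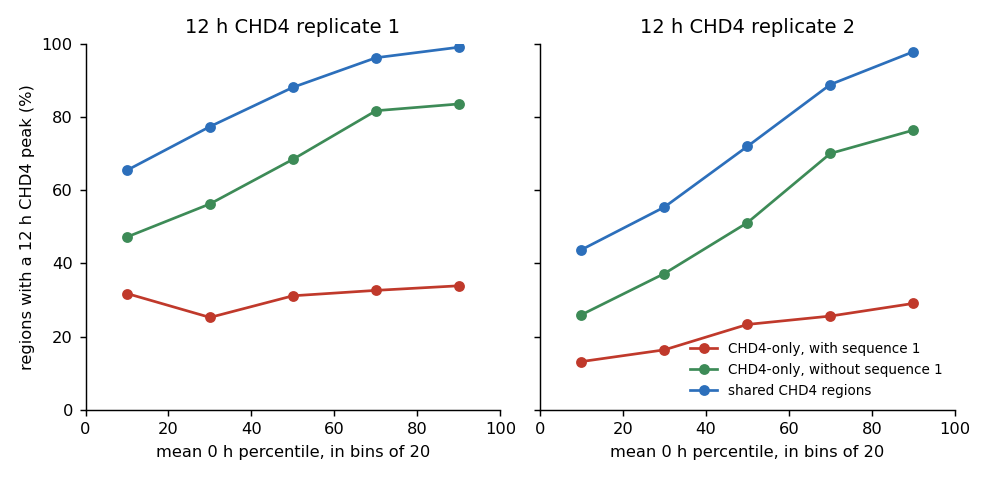
Percent of regions with a 12 h CHD4 peak (y axis, 1 panel per library) against the mean percentile of the region in both 0 h CHD4 lists, in bins of 20 (x axis), for CHD4-only regions with and without sequence 1 and for shared CHD4 regions. In the highest bin the lines stand at 33.9%, 83.6% and 99.1% in replicate 1.

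The closest matches to sequence 1 had a 12 h peak least often. At alignment scores of 40 to 60, 41.6% and 30.4% of members had one, at scores of 60 to 80, 43.3% and 32.0%, at 80 to 100, 31.7% and 24.96%, and at 100 to 120, 20.2% and 14.6%. Members with the CpG form GAGGGCGTC had a 12 h peak in 19.9% and 13.1% of cases, those with the CpA form GAGGGCATC in 25.7% and 20.3%, and the 91 with the TpG form GAGGGTGTC in 60.4% and 47.3%. Members with sequence 2 and not sequence 1 had one in 68.9% and 56.6%, above the other members, so the low values did not extend to this second repeated sequence. By distance from the nearest CTCF peak, members with sequence 1 had a 12 h peak in 37.5% and 29.6% of cases at 1 to 5 kb, against 69.0% and 51.1% without it. At 5 to 20 kb the values were 32.3% and 23.5% with it and 65.9% and 48.0% without. At 20 to 100 kb they were 26.2% and 19.9% against 63.5% and 46.4%, and beyond 100 kb 26.2% and 22.8% against 64.3% and 53.8%. The gap was thus present in every distance class, and was wider in each farther class in both libraries. Shared CHD4 regions showed a smaller gap, 79.0% and 69.9% with sequence 1 against 92.4% and 82.9% without.

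Since members must have a CHD4 peak at 0 h, a lower value at 12 h is partly fixed by the choice, and CHD4 was also read under 3 other choices. Sequence 1 itself was found in regions chosen by both 0 h CHD4 lists. Under all 3, the values split by sequence 1 therefore still carry that choice. With regions chosen by the 0 h replicate 1 lists alone, the other 0 h CHD4 library can be set beside both 12 h libraries. That library had no part in choosing these regions, but it had one in finding sequence 1. With sequence 1, 51.5% of 7930 such regions had a CHD4 peak in replicate 2 at 0 h, and 26.5% and 18.0% had one at 12 h. Without it, the 0 h value of 39.6% lay between the 12 h values of 46.5% and 30.0%. Chosen with the replicate 2 lists alone, 67.9% of 7728 regions with sequence 1 had a peak in replicate 1 at 0 h, and 32.8% and 21.9% at 12 h. Without it, the values were 40.3% at 0 h and 44.0% and 23.2% at 12 h. With sequence 1, both 12 h values were thus below the 0 h value under either choice, and without it replicate 1 was above and replicate 2 below.

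The second choice treated 0 h and 12 h alike: a CHD4 peak in at least 2 of the 4 CHD4 lists of either time, none in the other remodelers' lists of either time, and no 0 h CTCF peak within 1 kb. Of these 15107 regions 72.1 ± 0.243% were occupied at 0 h and 52.4 ± 9.24% at 12 h (SD, n = 2 libraries each), a difference of -19.7 points. Both 12 h libraries were lower, and the exact permutation p of 0.33 is the smallest that 2 libraries against 2 allow. With a -log10 q of at least 5 (-25.6 points) or the 40000 strongest peaks of each list (-16.3 points) that p was 0.667, and the times were no longer the most separate grouping of the 4 libraries. The 4167 regions with sequence 1 were occupied in 88.4% and 83.2% at 0 h and in 36.3% and 27.5% at 12 h. The 10940 without it were occupied in 66.1% and 67.6% at 0 h and in 67.6% and 52.9% at 12 h, so their times overlapped. The change was -53.9 points with sequence 1 and -6.63 points without, and the difference between these changes, -47.2 points, also had the smallest exact permutation p of 0.33. Only the choice of regions treated the times alike: sequence 1 was found in regions chosen at 0 h, so this difference is no independent evidence.

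The third used no selection of regions by remodeler, although sequence 1 was still the one found under the 0 h choice. Among the 20000 strongest peaks away from CTCF in each list, sequence 1 lay within 150 bp of the summit of 17.2% and 9.54% of CHD4 peaks at 0 h and of 7.36% and 5.91% at 12 h. Each 12 h library gave a lower share than each 0 h library, although the 0 h replicates differed by more than the lower of them differed from the 12 h lists (exact permutation p of 0.33, the smallest possible). In CHD8 lists the share ran from 0.37% to 0.455%, in SMARCA4 lists from 0.64% to 0.78% and in SMARCA5 lists from 2.23% to 3.00%, with the times overlapping in CHD8 and SMARCA5 and the 12 h values slightly higher in SMARCA4. The rule applied to the 12 h lists instead gave 5716 regions, of which 15.7% held sequence 1 and 22.6% had no CHD4 peak at 0 h. How reads from repeat copies were placed by the aligner, and its part in these values, was not tested.

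**Figure D5:**
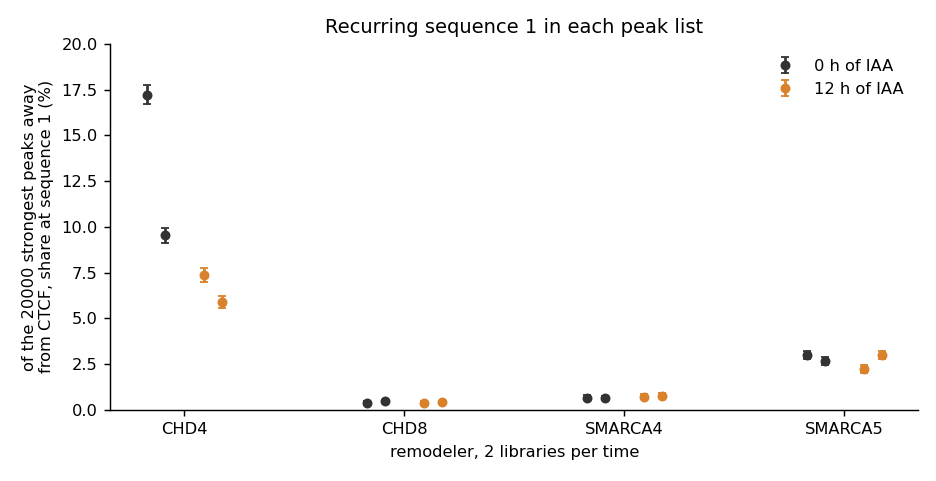
Share of the 20000 strongest peaks away from CTCF, in percent, with sequence 1 within 150 bp of the summit, 1 point per library with its exact 95% interval, for each remodeler at 0 h and 12 h of IAA. CHD4 lists hold 17.2% and 9.54% at 0 h and 7.36% and 5.91% at 12 h, and all other lists stay at or below 3.00%.

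The 1 kb limit of the rule separated regions that differed at 12 h only close to CTCF itself. CHD4-only regions within 1 kb of CTCF held a 12 h CHD4 peak in 24.9% and 18.4% of cases, which put members 25.8 ± 5.11 points higher (SD, n = 2 libraries). Those that overlapped a CTCF peak held one in 16.0% and 11.8%. Just outside the limit, members 1 to 2 kb from CTCF stood at 58.8% and 44.5%, and just inside it, regions 500 to 1000 bp away stood at 59.1% and 44.0%. Beside CTCF, sequence 1 made little difference, with 21.2% and 15.5% with it and 26.4% and 19.6% without.

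By annotation, 12 h CHD4 peaks were found at 48.5% and 36.1% of intronic, 58.7% and 44.9% of intergenic, 57.8% and 42.8% of promoter and 60% and 36.4% of exonic members. Intronic members, the class with the highest share of sequence 1, were lowest in both libraries. Exonic members, the class with the lowest share (7.80%), were nearly as low in replicate 2 but highest in replicate 1.

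The members with the strongest CHD4 peaks at 12 h were led by an intergenic region at chr4:3175377-3176845, 3294 bp downstream of the start of Vmn1r2, a vomeronasal receptor gene. Its fold enrichment was 12.9 and 25.6 at 0 h and 17.4 and 21 at 12 h, and SMARCA5 was called there in both 12 h lists. An intronic region 1609 bp downstream of a start site of Htt, the huntingtin gene, at chr5:34763353-34763810 had folds of 25.3 and 8.84 at 0 h and 20.8 and 9.85 at 12 h with no other remodeler. A region 20376 bp upstream of Kank1 at chr19:25216250-25216599 ranked higher at 12 h, with a mean percentile of 65.8 at 0 h and 98.7 at 12 h, and its folds were 4.91 and 4.19 at 0 h and 13.8 and 11.4 at 12 h. It and the Zglp1 region were the 2 of the 10 that held sequence 1. Among all 3796 members with CHD4 in both 12 h lists, 670 held it. The others of the 10 were nearest to Vmn1r238, Gm7102, Spic, Gabrr1, Mpdz and Dhx35.

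Of the 10 members with the strongest 0 h peaks among those with no CHD4 peak at 12 h, 7 held sequence 1. Among all 4382 members with no 12 h CHD4 peak, 2367 held it. Members with sequence 1 also ranked higher at 0 h (median percentile 60.4 against 43.6). The strongest of the 10 was an intergenic region 33545 bp upstream of Sccpdh at chr1:179634148-179634665, with folds of 22.1 and 20.4 at 0 h. An intronic region at chr7:68142205-68142813, nearest to Pgpep1l, had folds of 21.8 and 15.9. One nearest to Ppargc1a, the gene of the coactivator PGC-1alpha, at chr5:51565683-51566127 had folds of 24.3 and 14.2 and holds the letters of neither sequence. Its printed window does hold the CTCF core letters GCGCCCCCT on the minus strand, while the nearest 0 h CTCF peak was 342706 bp away. One in an intron nearest to Optn, the autophagy receptor optineurin, had folds of 14.9 and 11.6, and one in an intron nearest to Pak2, a kinase downstream of small GTPases, had folds of 18.5 and 13.4. The others were nearest to Bicdl1, Trmt1l, Papln, Setd6 and Bud23. A SMARCA4 peak in 1 of the 12 h lists, at Papln, was the only other remodeler call at 12 h among these 10.

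Members were spread over many genes. Of 21728 protein-coding genes, 6490 had the start site nearest to at least 1 member, 3882 of them with exactly 1 member and 293 with 5 or more. The most members, 19, were nearest to Trim24, a chromatin-reading co-regulator, followed by Sulf2, a heparan sulfate editing enzyme, with 18 and Tbx3, a T-box factor of the pluripotency network, with 16. These members lay far from the start sites, at 20856 to 146188 bp for Trim24, 37166 to 132044 bp for Sulf2 and 28971 to 530461 bp for Tbx3. The genes 1810013L24Rik and Zfhx3, a homeodomain factor, had 15 each, and Auts2, a neurodevelopmental regulator, had 14. Sh3pxd2a, a scaffold of podosomes, had 13, Cdh13, a cadherin held to the membrane by a lipid anchor, and Gm26897 had 12 each, and 8 genes including Ercc4 had 11. Sequence 1, held by 32.6% of all members, was in none of the members at Trim24, Sulf2, Zfhx3, Auts2, Cdh13 and Ercc4, in 1 of 12 at Gm26897, 2 of 16 at Tbx3, 2 of 13 at Sh3pxd2a and 4 of 15 at 1810013L24Rik. A CHD4 peak in both 12 h lists, found at 32.9% of all members, was found at 12 of 14 members at Auts2, 10 of 19 at Trim24, 6 of 11 at Ercc4, 7 of 18 at Sulf2, 5 of 12 at Cdh13, 5 of 13 at Sh3pxd2a, 6 of 16 at Tbx3, 4 of 12 at Gm26897, and 4 of 15 each at Zfhx3 and 1810013L24Rik. These genes also had many shared CHD4 regions, such as 29 at Trim24 and 48 at Zfhx3. Counts by nearest start site were not adjusted for gene length or spacing, and Zfhx3, Auts2 and Cdh13 are 1019, 1106 and 1041 kb long. Whether the members act on these genes was not tested.

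Within 10 kb of a start site, 2802 of the 21728 genes (12.9%) had a member. Among 20 pluripotency genes 4 had one: Dppa3, Nanog, Klf2 and Tdgf1. At Nanog, a core factor of naive pluripotency, the member at chr6:122713481-122713844 had folds of 3.46 and 3.35 at 0 h and 4.27 in replicate 1 at 12 h, with no peak in replicate 2, and holds sequence 1. At Klf2 the folds were 2.85 and 4.92 at 0 h and 4.20 and 4.99 at 12 h. Among 15 endoderm genes 3 had one, Gata4, Gata6 and Eomes, and none of the 3 members had a CHD4 peak at 12 h, as was so for 1320 of the 3395 members within 10 kb of any protein-coding start site. Among 15 mesoderm genes 6 had one. The 4 nearest to a start site were at Hand1, Twist1, Hand2 and Tbx6, and the Twist1 member, 1369 bp upstream, had folds of 5.52 and 5.68 at 0 h and 5.07 and 5.999 at 12 h. Neural genes had 3 of 20 (Nkx2-2, Neurod1 and Pax7), synaptic adhesion genes 2 of 20 (Cdh13 and Kcnip4), trophoblast genes 3 of 10 (Krt7, Ascl2 and Krt8), germline genes 3 of 14 (Dazl, Sycp3 and Hormad1) and signalling genes 2 of 22 (Tcf7l1 and Smad7).

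Among 20 genes of the NuRD and ChAHP complexes and their relatives, 5 had a member within 10 kb: Chd5, Mta2, Rbbp7, Gatad2b and Gatad2a. Rbbp7, which encodes a histone chaperone subunit of NuRD, had 2 in an intron, with folds of 10.6 and 3.97 at the first and 7.45 and 5.68 at the second at 0 h. Gatad2a and Gatad2b, which encode subunits that bridge NuRD to CHD4, had 1 each, with folds of 10.7 and 7.69 and of 7.07 and 3.74. These 4 intronic members held sequence 1 and had no CHD4 peak at 12 h, as was so for 62.9% of all members with sequence 1. The Chd5 member, 686 bp upstream of a start site, lacked sequence 1 and had folds of 2.65 and 3.13 at 0 h and 3.37 in replicate 1 at 12 h, with no peak in replicate 2. The member 1755 bp upstream of Mta2 lacked sequence 1 and had folds of 6.06 and 4.99 at 0 h and 5.74 and 5.82 at 12 h. The lists are short, and with members near 12.9% of all genes none of these counts is called particular to its list.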

How the data were processed

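Peak lists of 20 of the 30 samples were used, and the 10 inputs were not analysed here. The authors deposited 1 narrowPeak list per library without a header, so replicates were not pooled. Trim Galore, Bowtie2, MACS2 and deepTools, and the builds mm10 and hg38, are named in the submitters' processing notes, with no versions or roles. All peaks lay within GRCm38 chromosomes, and RefSeq GRCm38.p6 and GENCODE M21 basic were used. The deposited lists give a fold enrichment (ratio), a −log10 p-value and a −log10 q-value for each peak, as the authors' caller wrote them, read from the layout and the values. They were used only to rank, filter or describe peaks within a list.

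Merging, overlaps, distances and tests were done in Python 3.11.15 with numpy 2.4.6, pandas 2.3.3 and scipy 1.17.1. Sequences were read with pysam 0.24.0 and aligned with Biopython 1.88. A region was occupied where a peak overlapped it by at least 1 bp. Promoters reach 1 kb to either side of a start site; otherwise the midpoint decides exon, intron or intergenic. Each log2 odds ratio has 0.5 added to each cell. Libraries were the units of every exact permutation test, and intervals are exact Clopper-Pearson 95%. Depth is unknown, so precision rests on library number. The measures were tested on simulated data. Named genes were the 10 members ranked highest in the 12 h lists, the 10 ranked highest at 0 h without a 12 h CHD4 peak, the 10 genes with most members (ties in alphabetical order) and, for each gene list, genes with a member within 10 kb. The members and lists were chosen with earlier results of these data known, and the analyses of sequence 1 and of single words were added after the 12 h lists had been seen.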

Additional observations from a re-analysis of the deposited data

How the results depend on the processing

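No difference between groups or times changed sign under the alternatives run. A -log10 q of at least 5 left 4780 CHD4-only regions and the 40000 strongest peaks of each list left 2000, while choosing with 1 replicate gave 32492 (replicate 1) and 64721 (replicate 2) regions, with 12 h CHD4 occupancy of 34.4% and 32.9%. The gap to shared CHD4 regions was -45.9 points with the 40000 strongest peaks and -43.7 points when a 12 h summit had to lie inside the region. The gap to regions beside CTCF was 12.3 points when the limit was 5 kb. The gap between members without and with sequence 1 was 38.96 points with the 40000 strongest peaks, and 29.3 points with an exemplar found in the 12 h lists, which aligned to sequence 1 with a score of 97. With protein-coding transcripts alone the promoter, intron and intergenic shares were 3.11%, 39.1% and 53.9%, and with promoters of 2 kb they were 12.8%, 40.3% and 43.1%.

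Leaving out 1 library at a time, the difference between CHD4 and the other remodelers ran from 32.7 to 46.4 points and the relative one from 3.01 to 3.28. Without either 12 h CHD4 library the exact permutation p was 0.143, the smallest possible with 1 library against 6. CHD4 occupancy ran from 40.6 to 54.3%, the gap to shared regions from -41.9 to -37.7 points, the gap to regions beside CTCF from 22.2 to 29.4 points and the sequence 1 gap from 25.1 to 34.3 points. The time-symmetric change ran from -26.2 to -13.1 points; without CHD4 replicate 2 at 12 h it was -13.1. Its exact permutation p was 0.667 with a -log10 q of at least 5 (-25.6 points), with the 40000 strongest peaks (-16.3 points) and without CHD4 replicate 1 at 0 h (-19.5 points). Replicate numbers did not pair the libraries: the correlation of replicate differences between times was 0.04 for CHD4 and at most 0.0406 for any remodeler. With a replicate block the difference of 39.5 points and the relative difference of 3.16 had an exact permutation p of 0.0625, the smallest the block allows, and the time-symmetric change of -19.7 points and the sequence 1 difference of -47.2 points had one of 0.5. In the time-symmetric set every summit lies inside its region, so that alternative could not differ. The settings for sequence 1 were chosen after seeing the data. Unknown depth, 2 libraries per group and differing CHD4 peak widths limit all values.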
